A study of Mus musculus with 2 samples.

Results

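Malat1, Neat1, Kcnq1ot1, Gm17167 and Gm26802 are long noncoding transcripts, and they were examined here as 5 of the 32285 features counted in single-cell libraries of muscle stem cells. They were chosen by symbol after earlier results of the same data had been seen, so their differences between barcodes and between libraries are given as descriptions. Every deposited barcode was kept, 2416 in all, and was placed in a class with under 500 or with at least 500 detected genes. All 5 symbols were found in both libraries, with 107572 UMIs for Malat1, 1652 for Neat1, 262 for Kcnq1ot1, 115 for Gm17167 and 100 for Gm26802. A UMI is a tag that marks 1 captured RNA molecule.

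Both libraries came from tibialis anterior (TA) muscle of 8 weeks old mice of the strain Pax7 CreERT2/+ ;Rosa26 mTmG/+, in which a Cre driven by Pax7 can switch on a membrane reporter in satellite cells (SCs). Quiescent SCs (QSCs) were sorted from uninjured muscle. Activated SCs (ASCs) were sorted 1.5 days after the muscle had been injured with cardiotoxin (CTX), a toxin that destroys muscle fibres. Both groups carried the same alleles. Each group was 1 library, for which SCs of several mice had been pooled per the study's text, so the spread between animals cannot be seen. Group and library therefore cannot be told apart. With 1 library on each side no difference could be set against replicates, and no p-value was computed. Intervals are 95% intervals that cover counting error only.

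Long noncoding RNAs that stay in the nucleus act where they are made or collect in nuclear bodies. Malat1 sits in nuclear speckles, which hold splicing factors, and Neat1 is the scaffold of paraspeckles, which form around its long isoform. Kcnq1ot1 is read antisense to Kcnq1 from the paternal allele of an imprinted domain and keeps genes in that domain silent in cis, among them the cell cycle inhibitor gene Cdkn1c. In droplet data the level of Malat1 in a barcode is often read as a sign of how much nuclear RNA the droplet held. Gm17167 and Gm26802 are annotated without a known role.

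The positions below are those of GENCODE M21 on GRCm38, the build named in the submitters' processing notes as mm10. Malat1 lies on chromosome 19 from 5795690 to 5802672 on the minus strand, and its main transcript is a single exon of 6983 bases. Neat1 lies close by on the same strand, from 5824708 to 5845478, with a transcript of 20771 bases in 1 exon and a spliced one of 3004 bases in 2 exons. Kcnq1ot1 lies on chromosome 7 from 143203458 to 143296549 on the minus strand, a single exon of 93092 bases inside Kcnq1, which runs from 143106362 to 143427042 on the plus strand. Gm26802 lies on chromosome 7 from 19298260 to 19300770 on the minus strand and has 2 exons of 1716 and 428 bases. Gm17167 lies on chromosome 4 from 42206998 to 42235313 on the plus strand and has 2 exons of 138 and 4916 bases.

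The libraries were primed from runs of A, so the runs in each transcript are shown, because they say where a molecule without a poly(A) tail could still be primed. The bases are written 5′ to 3′ as in the GENCODE M21 transcripts, with U as T. Capitals mark the A run, or the AATAAA signal in the short Neat1 transcript. For the long Neat1 transcript and for Gm26802 they mark the longest A run of the last 100 bases.

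Malat1-201 (chr19:5795928-5796089, minus): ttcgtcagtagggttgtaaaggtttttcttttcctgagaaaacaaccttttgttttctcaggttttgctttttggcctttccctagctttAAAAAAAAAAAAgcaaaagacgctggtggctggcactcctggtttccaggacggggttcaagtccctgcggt
Neat1-201, 3′ end (chr19:5824708-5824807, minus): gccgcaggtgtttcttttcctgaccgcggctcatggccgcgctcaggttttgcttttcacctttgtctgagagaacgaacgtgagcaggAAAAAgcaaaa
Neat1-202, 3′ end (chr19:5842307-5842406, minus): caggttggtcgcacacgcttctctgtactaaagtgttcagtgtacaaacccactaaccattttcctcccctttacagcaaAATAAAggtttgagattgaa
Kcnq1ot1-201 (chr7:143226905-143227025, minus): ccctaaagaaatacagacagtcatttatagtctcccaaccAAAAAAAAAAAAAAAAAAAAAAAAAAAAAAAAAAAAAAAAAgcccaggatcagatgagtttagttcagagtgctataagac
Gm17167-201, 3′ end (chr4:42235203-42235313, plus): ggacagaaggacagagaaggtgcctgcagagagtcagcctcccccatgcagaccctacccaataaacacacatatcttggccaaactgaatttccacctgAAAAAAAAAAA
Gm26802-201, 3′ end (chr7:19298260-19298359, minus): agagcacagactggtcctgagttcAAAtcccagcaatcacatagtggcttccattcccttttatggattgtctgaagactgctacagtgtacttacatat

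Malat1 held 1 run of at least 10 A, of 12 bases, which ended 298 bases before the annotated 3′ end. As background, RNase P cuts Malat1 and long Neat1 just after an A-rich tract, and the new end folds with U-rich stretches into a triple helix in place of a poly(A) tail. The Malat1 and long Neat1 ends shared the stretch ctcaggttttgctttt of 16 bases. Of the transcripts of 55450 genes, searched on both strands, those of these 2 genes alone held it. A second shared stretch, tttcttttcctga, was in 47 of those genes (0.0848%). Both stretches were found by comparing the printed ends, so the match is a description. Kcnq1ot1 held 10 runs of at least 10 A, the longest of 41 bases, and Gm17167 held 2, of which 1 closes the transcript. Neat1 and Gm26802 held no such run, with longest runs of 7 and 6 bases. Such a run was present in 7.64% of all lincRNA genes, in 8.72% of antisense genes and in 12.2% of processed transcripts, and in 44.1% of the 34 lincRNA genes between 6000 and 30000 bases long. The AATAAA signal stood in the last 50 bases of Malat1-201, Neat1-202 and Kcnq1ot1-201 and not in those of Neat1-201 or Gm26802-201. In Gm17167-201 it began 51 bases from the end, just outside that window.

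Gm17167 shared blocks of at least 500 bases at 95% identity or more with 13 other genes, all on chromosome 4, and in 2 of these genes the blocks covered over 50% of its transcript. Reads of such copies could not be assigned to 1 gene, so the Gm17167 counts are uncertain. No such block was found for the other members.

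The QSC library had 246 barcodes with under 500 genes and 520 with at least 500, with median depths of 653.5 and 2155 UMIs. The ASC library had 163 and 1487, with median depths of 701 and 3451 UMIs, and 4 barcode sequences were in both libraries. Pax7, which marks SCs, had 160 CPM (counts scaled to a sum of 1e6 UMIs in the class) in QSC barcodes with at least 500 genes and 18.5 in ASC ones, and Myod1, a regulator of activation, had 112 and 305. Many barcodes in each library took a large share of their UMIs from muscle fibre genes. The summed share of 5 fibre genes (Acta1, Ckm, Myh4, Mylpf and Tnnt3, for actin, creatine kinase, myosin and troponin proteins of fast fibres) had a median of 11.1% in QSC and 6.23% in ASC barcodes with under 500 genes. With at least 500 genes the medians were 1.22% and 7.13%. Barcodes with at least 5% of UMIs from these genes are called fibre-high and the others fibre-low. Fibre-high barcodes made up 85.8% and 20.2% of the QSC classes with under and with at least 500 genes, and 67.5% and 60.1% of the ASC classes. The 10 quiescent SC markers summed to 5641 CPM in fibre-low and 145 CPM in fibre-high QSC barcodes with at least 500 genes, and to 993 and 67.1 CPM in those of the ASC library. The 8 activated SC markers summed to 471 and 28.0 CPM in the same QSC barcodes and to 2966 and 497 CPM in the ASC ones. Markers of the labelled cell types were thus lower in fibre-high than in fibre-low barcodes. Fibre-low QSC barcodes also held 8027 CPM from 7 fibroblast and 804 CPM from 8 macrophage and monocyte markers, and ASC ones 912 and 1344 CPM.

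Malat1 took a far larger share of the UMIs in QSC barcodes with at least 500 genes than in any other class. It had 61534 UMIs there, or 52448 CPM (52035 to 52864). QSC barcodes with under 500 genes had 1232 UMIs, or 7130 CPM (6738 to 7540). ASC barcodes had 579 UMIs, or 4873 CPM (4484 to 5287), with under 500 genes and 44227 UMIs, or 4947 CPM (4901 to 4993), with at least 500. The QSC barcodes with at least 500 genes stood above the other 3 classes, and the intervals of the ASC classes overlapped. In the ASC class with under 500 genes, 1 barcode gave 225 of the 579 UMIs, and without it the level was 3002 CPM (2698 to 3332), below that of the other ASC class. Malat1 made up 97.6% to 98.8% of the UMIs of the members in every class, so the summed member share, 5.33% of all UMIs in the highest class and 0.493% to 0.723% in the others, followed Malat1.

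Neat1 had 769 UMIs, or 655 CPM (610 to 703), in QSC barcodes with at least 500 genes and 865 UMIs, or 96.7 CPM (90.4 to 103), in the matching ASC barcodes. With under 500 genes it had 13 UMIs, or 75.2 CPM (40.1 to 129), in the QSC library and 5, or 42.1 CPM (13.7 to 98.2), in the ASC library. The intervals of the last 3 classes overlapped. Kcnq1ot1 had 62 UMIs, or 52.8 CPM (40.5 to 67.7), in QSC and 197 UMIs, or 22.0 CPM (19.1 to 25.3), in ASC barcodes with at least 500 genes, and 1 and 2 UMIs with under 500. The intervals of the classes with at least 500 genes were apart, and each class with under 500 genes overlapped the ASC class above it.

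Gm17167 and Gm26802 were almost limited to the QSC library. Gm17167 had 112 UMIs, or 95.5 CPM (78.6 to 115), in QSC barcodes with at least 500 genes, 3 UMIs in the matching ASC barcodes and 0 in both classes with under 500 genes. Gm26802 had 87 UMIs, or 74.2 CPM (59.4 to 91.5), in QSC barcodes with at least 500 genes, 9 in the matching ASC barcodes, 4 in QSC barcodes with under 500 genes and 0 in the ASC ones. A count of 0 allows up to 17.4 CPM in the QSC and 25.2 CPM in the ASC class with under 500 genes, taking 3 counts as the limit.

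**Figure D1:**
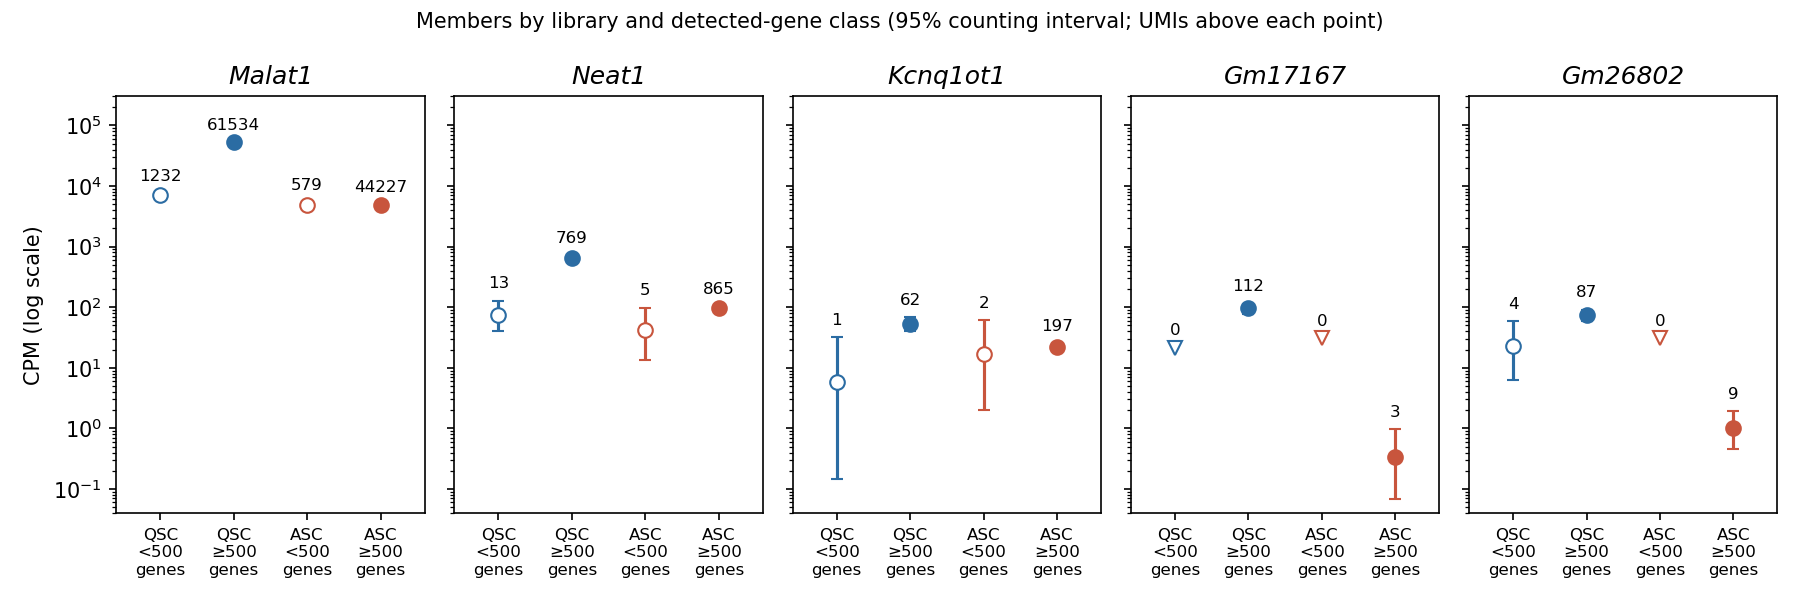
CPM (log axis) of each member in the 4 classes of library and detected genes, with 95% counting intervals and the UMI number above each point; triangles mark the upper end of the interval for a count of 0. The QSC class with at least 500 genes is the highest point in all 5 panels.

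The first comparison set barcodes with under 500 genes over those with at least 500 within a library. A gene is called lower past 2-fold when its ratio was at most 0.5 and its interval lay wholly below no change, among genes with at least 20 UMIs over both classes. In the QSC library 5 of 5 members were lower past 2-fold, beside 21.1% of all genes (1310 of 6196) and 26.4% of long noncoding genes (28 of 106). The members had been picked with this contrast known, so nothing is read from that count. Malat1 was 7.36-fold lower, with a log2 ratio of -2.88 (-2.96 to -2.80). Neat1 was 8.71-fold lower, at -3.12 (-4.04 to -2.34), and Gm26802 3.20-fold lower, at -1.68 (-3.59 to -0.27). Kcnq1ot1, with 1 against 62 UMIs, was at -3.19 (-8.52 to -0.66). Gm17167, with 0 against 112 UMIs, was at least 5.50-fold lower. The median of all ranked genes was -0.66, and 5.64% of them had a ratio below that of Malat1, 3.73% below Neat1 and 24.4% below Gm26802.

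In the ASC library 0 of the 3 members with enough UMIs were lower past 2-fold, beside 4% of all genes (429 of 10732) and 2.83% of long noncoding genes (10 of 353). Malat1 had a log2 ratio of -0.02 (-0.14 to 0.10). Without the barcode with the most Malat1 UMIs of each class it was -0.68 (-0.83 to -0.53). Neat1 was at -1.20 (-2.83 to 0.03) and Kcnq1ot1 at -0.39 (-3.44 to 1.48), and both intervals included no change.

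The second comparison set ASCs over QSCs. With at least 500 genes, 5 of 5 members were lower past 2-fold, beside 21.3% of all genes (2386 of 11207) and 23.2% of long noncoding genes (96 of 413). Malat1 was 10.6-fold lower, with a log2 ratio of -3.41 (-3.42 to -3.39), and Neat1 6.78-fold lower, at -2.76 (-2.90 to -2.62). Kcnq1ot1 was 2.40-fold lower, at -1.26 (-1.68 to -0.83). Gm26802 was 73.7-fold lower, at -6.20 (-7.38 to -5.21), and Gm17167, with 3 against 112 UMIs, was at -8.15 (-10.45 to -6.57). Only 1 ranked gene was below Gm17167, whose counts are uncertain, and 12 were below Gm26802, while 16.9% of 10686 were below Kcnq1ot1. The members were chosen after earlier results of these data had been seen, so nothing is read from the 5 of 5 or from these ranks. With at most 1% mt- UMIs (from the mitochondrial genes), the limit of the study's methods, the direction turned, with Malat1 at 1.19 (0.93 to 1.45) and 2 of the 2 members with enough UMIs higher past 2-fold, beside 8.61% of all genes. With under 500 genes, Malat1 alone had enough UMIs, and it was 1.46-fold lower, at -0.55 (-0.69 to -0.41). This was not past 2-fold, so 0 of 1 members was called, beside 13.3% of all genes (212 of 1599) and 25.8% of long noncoding genes (8 of 31). Its direction turned with the limit on mt- UMIs, to 0.16 with at most 10% and 0.58 with at most 1%. Without the barcode with the most Malat1 UMIs of each class it was -1.07 (-1.24 to -0.89), past 2-fold.

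**Figure D2:**
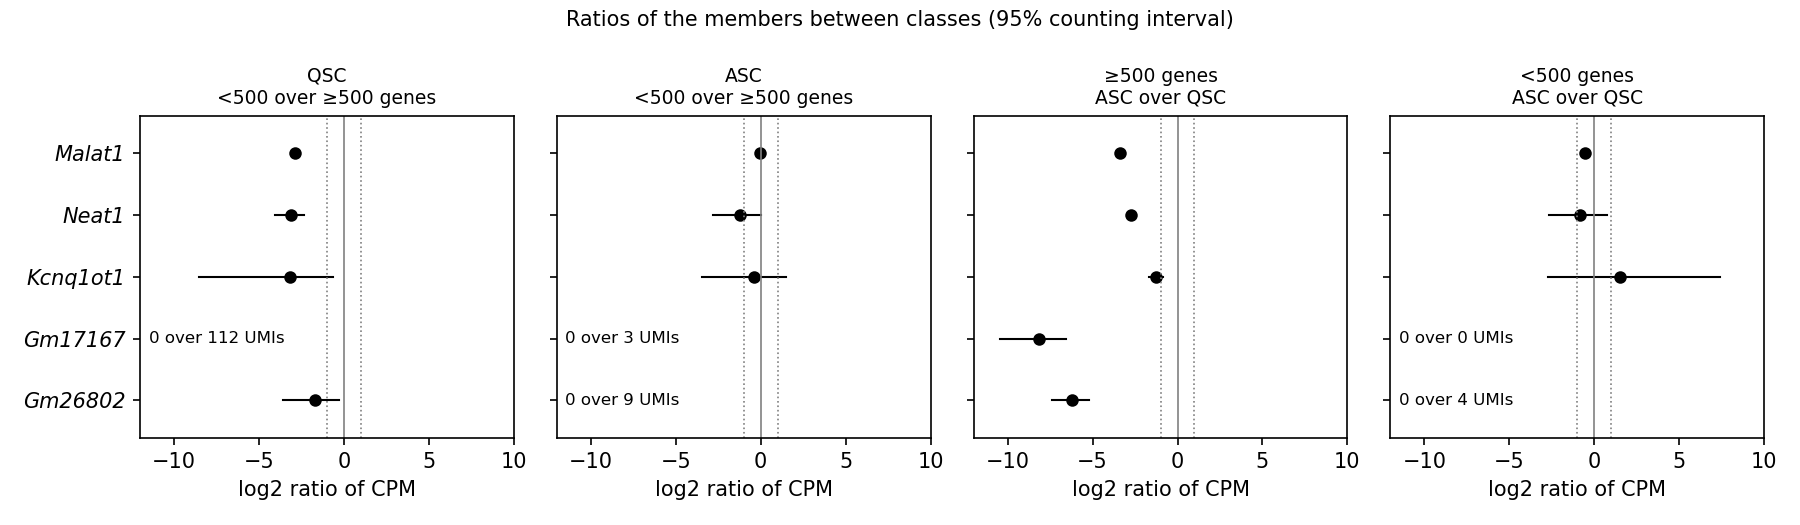
Log2 ratio of CPM for each member in the 4 comparisons, with 95% counting intervals; the solid line marks no change and the dotted lines 2-fold. Members with 0 UMIs in the upper class of a ratio are written as counts, and the Malat1 points stand at -2.88, -0.02, -3.41 and -0.55 from left to right.

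Split by fibre RNA, Malat1 separated into high and low barcodes in both libraries. Among barcodes with at most 10% of UMIs from the 13 mitochondrial (mt-) genes and at least 500 detected genes, every one of the 412 fibre-low QSC barcodes had Malat1, with a median of 140.5 UMIs per barcode and quartiles of 109.75 and 178. Their summed level was 63720 CPM, or 6.37% of UMIs. The 104 fibre-high QSC barcodes had 2247 CPM, a level 28.4-fold lower. Of their 482 Malat1 UMIs, 263 came from 1 barcode, and without it the level was 1030 CPM, or 61.9-fold lower. The 578 fibre-low ASC barcodes had 7142 CPM and a median of 50 UMIs (quartiles 19 and 101.5), and the 890 fibre-high ones 283 CPM, a level 25.2-fold lower. The classes with under 500 genes showed the same order. Fibre-low and fibre-high barcodes had 42467 CPM (21 barcodes) and 718 CPM (205) in the QSC library, a difference of 59.1-fold. They had 16678 CPM (30) and 387 CPM (92) in the ASC library, a difference of 43.1-fold. In the last pair 225 of the 373 fibre-low UMIs came from 1 barcode, and without it the level was 6901 CPM, a difference of 17.8-fold.

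Barcodes without any Malat1 UMI were mostly fibre-high, and with under 500 genes most barcodes with Malat1 were so too. In the QSC library they were 128 of the 246 barcodes with under 500 genes, of which 94.5% were fibre-high, and 33 of the 520 with at least 500, of which all were. In the ASC library they were 108 of 163, of which 75.0% were fibre-high, and 560 of 1487, of which 92.0% were. Among barcodes with Malat1, 76.3% of 118 and 14.8% of 487 were fibre-high in the QSC classes with under and with at least 500 genes, and 52.7% of 55 and 40.8% of 927 in the ASC classes.

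**Figure D3:**
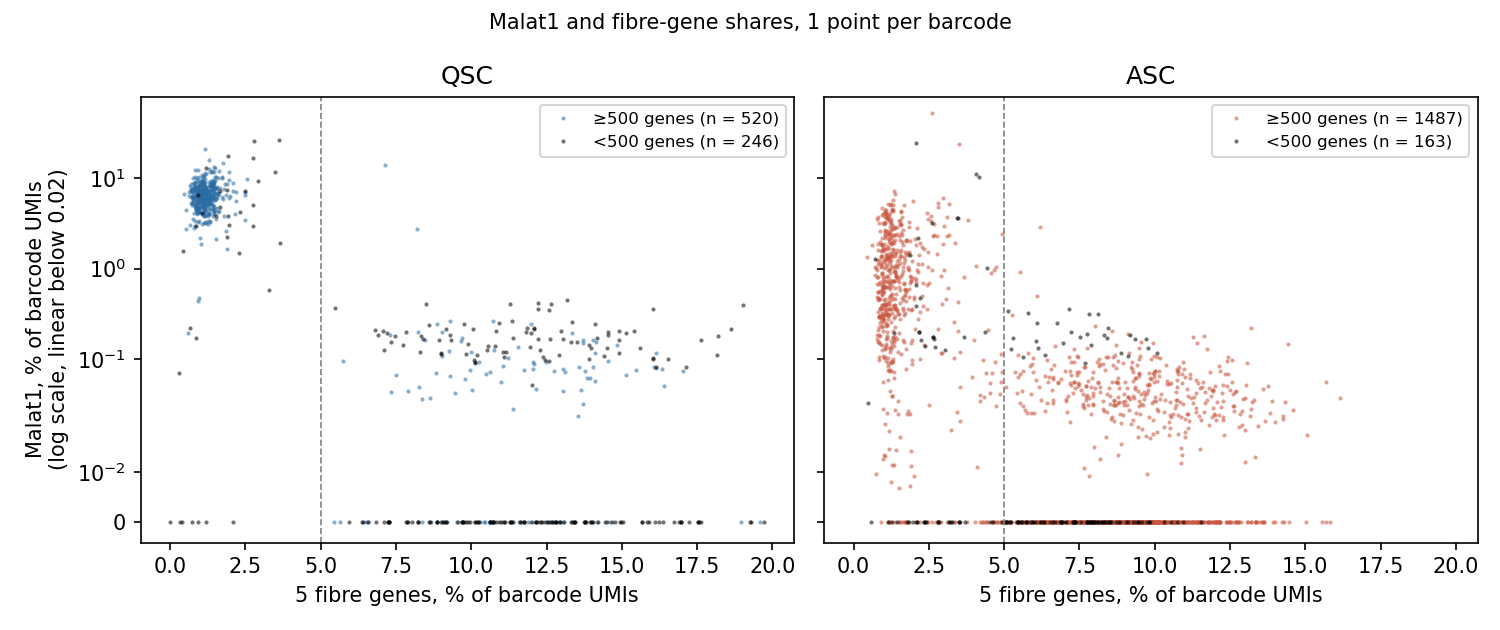
Malat1 as percent of a barcode's UMIs (log axis, linear below 0.02) against percent of UMIs from the 5 fibre genes, 1 point per barcode, with barcodes with under 500 genes in black and the 5% limit dashed. Fibre-low QSC barcodes with at least 500 genes gather near the summed share of 6.37%, while fibre-low ASC barcodes spread over a wider range, with quartiles of 0.156% and 1.54%.

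The split by fibre RNA also bears on the comparison of barcodes with few and many genes. Within fibre-low QSC barcodes with at most 10% mt- UMIs, Malat1 was at a log2 ratio of -0.59 (-0.71 to -0.46) for under over at least 500 genes, a difference of 1.50-fold, against -2.88 over all barcodes. With any mt- share it was -0.25. Neat1 was at -0.57 (-1.89 to 0.48). Within fibre-low ASC barcodes with at most 10% mt- UMIs, Malat1 was at 1.22 (1.07 to 1.37), and at 0.87 with any mt- share. Without the 1 barcode with 225 UMIs, 1.22 became -0.05 (-0.29 to 0.18), and the median of the 30 barcodes was 0 UMIs. The summed UMIs of fibre-low barcodes with under 500 genes held much red cell RNA. In them 4 haemoglobin genes, a list added after values had been seen, summed to 144141 CPM in the QSC and 128996 CPM in the ASC library. In fibre-low barcodes with at least 500 genes they summed to 133 and 1486 CPM. With under 500 genes, 2 QSC barcodes (median 1006 UMIs) and 1 ASC barcode (3052 UMIs) took at least 50% of their UMIs from these genes. The sums thus lay largely in a few barcodes and need not describe the others. The part of red cell RNA in the Malat1 ratios was not tested.

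With at least 500 genes, Malat1 was lower in ASC than in QSC barcodes within both fibre classes. Values by fibre class here and in the next paragraphs on depth and thinning are for barcodes with at most 10% mt- UMIs. Among fibre-low barcodes with at least 500 genes, Malat1 was 8.92-fold lower in ASCs, at a log2 ratio of -3.16 (-3.17 to -3.14), and Neat1 5.90-fold lower, at -2.56 (-2.70 to -2.42). Kcnq1ot1 was 2.04-fold lower, at -1.03 (-1.45 to -0.59), Gm26802 60.0-fold lower, at -5.91 (-7.08 to -4.91), and Gm17167, with 3 against 111 UMIs, was at -7.88 (-10.18 to -6.29). With any mt- share, Kcnq1ot1 was not past 2-fold in fibre-low barcodes. Among fibre-high barcodes with at least 500 genes, Malat1 was at -2.99 (-3.15 to -2.82) and Neat1 at -2.01 (-3.12 to -0.75), the latter from 30 and 9 UMIs. Without the 1 QSC barcode that held 263 Malat1 and 7 Neat1 UMIs, Malat1 was at -1.86 (-2.08 to -1.64) and Neat1 at 0.15 (-1.83 to 3.26), so no direction is read for Neat1 in fibre-high barcodes. Fibre-low barcodes also differed in depth, with medians of 6580.5 UMIs in ASCs and 2216.5 in QSCs. Malat1 was lower in ASCs both as a share and as UMIs per barcode, with the medians of 50 and 140.5 given above. Fewer molecules in a cell and lower capture in a library cannot be told apart.

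At matched depth the libraries remained apart. Fibre-low barcodes with 1000 to 2000 UMIs had 72070 CPM of Malat1 in the QSC library (141 barcodes) and 9118 CPM in the ASC library (58). In that ASC window 1 barcode gave 328 of the 827 UMIs, and without it the level was 5586 CPM. With 2000 to 4000 UMIs the levels were 61901 CPM (248) and 23396 CPM (90), the latter 18737 CPM without 1 barcode that gave 1326 of 6421 UMIs. With 4000 to 8000 UMIs they were 48536 CPM (15) and 16105 CPM (178). Malat1 UMIs grew with depth in QSCs and hardly did so in ASCs beyond the shallowest barcodes. Fibre-low barcodes were split by depth into 4 groups of like size. From the shallowest to the deepest group of QSC barcodes, median depth went from 1556 to 3072 UMIs and median Malat1 from 106 to 183 UMIs. In ASCs depth went from 2067 to 23880 UMIs, and median Malat1 was 15, 66, 68 and 63 UMIs in the 4 groups, so its median share ended at 0.237%.

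Thinned to 500 UMIs per barcode, Malat1 was seen in 412 of 412 fibre-low QSC barcodes with at least 500 genes, with a median of 33 UMIs, and in 433 of 578 ASC ones (74.9%, 71.2 to 78.4), with a median of 3. Fibre-high barcodes at that depth had Malat1 in 27.9% of QSC and 9.78% of ASC barcodes. Fibre-low QSC barcodes with under 500 genes had it in 18 of 18, with a median of 16.5 UMIs. The matching ASC barcodes had it in 12 of 30 (40%, 22.7 to 59.4), with a median of 0. Fibre-high barcodes with under 500 genes had it in 31.6% of QSC and 14.1% of ASC barcodes. Over all barcodes the thinned shares were 86.0% and 37.4% with at least 500 genes and 35.4% and 27.0% with under 500, in QSCs and ASCs, and the unthinned ones 93.7%, 62.3%, 48.0% and 33.7%. Shallower barcodes were left out, 37 in the QSC class with under 500 genes and 0 in the other classes. The 9.78% of fibre-high ASC barcodes was the lowest of these shares. The part of free RNA in them was not tested.

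**Figure D4:**
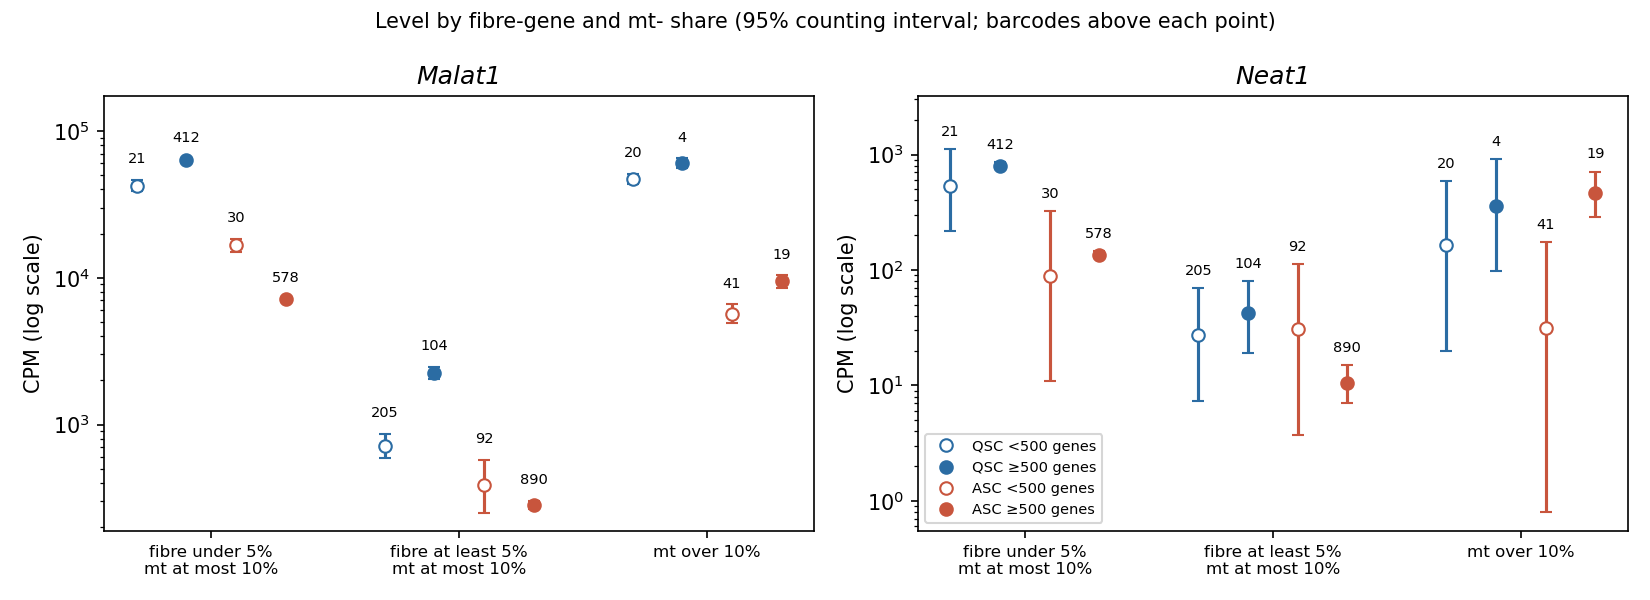
CPM (log axis) of Malat1 and Neat1 by fibre share and mt- share, with 95% counting intervals and the number of barcodes above each point. Every fibre-high point of Malat1 lies below every fibre-low one, and among fibre-low barcodes the QSC points (42467 and 63720) lie above the ASC points (16678 and 7142).

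With at least 500 genes, Malat1 was also low in barcodes with few mt- UMIs. In QSC barcodes with at least 500 genes, Malat1 was at 712 CPM below 1% mt- UMIs (86 barcodes), 58888 CPM from 1 to 5% (268), 67265 CPM from 5 to 10% (162) and 60223 CPM above 10% (4). In the matching ASC barcodes it was at 1619 CPM (948), 6928 CPM (500), 8989 CPM (20) and 9431 CPM (19). In the ASC bin below 1%, 1 barcode gave 1326 of the 5486 Malat1 UMIs, and the median was 0 UMIs per barcode. The bin below 1% had a median fibre share of 11.9% in these QSC barcodes and 8.90% in the ASC ones. With at least 500 genes the bins from 1% up lay close to each other in each library, and the largest step was between the bin below 1% and the rest. In QSC barcodes with under 500 genes, Malat1 was at 598, 3028, 38757 and 46994 CPM in the same bins. In ASC ones it was at 897, 7295, 87074 and 5680 CPM, and the third value rested on 4 barcodes with 225 UMIs in 1 of them.

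Across barcodes with at least 500 genes, the rank correlation of the Malat1 share was 0.55 with the mt- share and -0.43 with the fibre share in QSCs (n = 520). In ASCs it was 0.62 and -0.63 (n = 1487). With mt- and fibre genes taken out of the denominator, the correlation with the fibre share was -0.42 and -0.63. Malat1 and Neat1 shares had rank correlations of 0.45 and 0.56. With under 500 genes the correlations of Malat1 were 0.29 and -0.26 in QSCs (n = 246) and 0.25 and -0.24 in ASCs (n = 163). All points of a correlation share a library, and the shares rest on the same total, so these are descriptions.

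Neat1 followed the same split. In barcodes with at least 500 genes and at most 10% mt- UMIs, it was at 798 CPM in fibre-low and 42.0 CPM in fibre-high QSC barcodes, and at 135 and 10.4 CPM in ASC ones. The log2 ratio of fibre-high over fibre-low was -4.25 (-5.38 to -3.32) in QSCs and -3.70 (-4.27 to -3.17) in ASCs, and 7 of the 9 UMIs of fibre-high QSC barcodes came from 1 barcode, without which the QSC ratio was -6.41 (-9.45 to -4.55). Neat1 was seen in 312 of the 412 fibre-low QSC barcodes (75.7%) and 302 of the 578 fibre-low ASC barcodes (52.2%). Thinned to 500 UMIs it was seen in 27.4% (23.2 to 32.0) and 6.57% (4.69 to 8.91) of these barcodes.

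Kcnq1ot1, Gm17167 and Gm26802 were found almost wholly in fibre-low barcodes. Of the QSC barcodes with at least 500 genes, 88 had Gm17167, 58 had Gm26802 and 46 had Kcnq1ot1, and 88, 57 and 45 of them were fibre-low. All of these QSC barcodes also had Malat1. In the ASC library 121 of 123 barcodes with Kcnq1ot1 were fibre-low, as were 3 of 3 with Gm17167 and 9 of 9 with Gm26802. For these last 2 genes the ASC counts were too few to read. Their intervals of the log2 ratio of fibre-high over fibre-low reached up to 2.34 and 0.08, so both included no change. Per fibre-low barcode with at most 10% mt- UMIs, Kcnq1ot1 was seen in 10.9% of QSCs and 20.2% of ASCs although its CPM was lower in ASCs, 31.6 against 64.4, so no order is read from these shares at such different depths.

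Gm26802 lies 1925 bases beyond the end of Fosb, an immediate early gene, on the same strand. Fosb had 2702 CPM in QSC barcodes with at least 500 genes, 231 CPM in QSC ones with under 500, and 126 and 84.2 CPM in the ASC classes, so Gm26802 and Fosb had their highest level in the same class. In fibre-low QSC barcodes Fosb was seen in 55 of 57 with Gm26802 (96.5%, 87.9 to 99.6) and in 312 of 355 without it (87.9%, 84.0 to 91.1), and these intervals overlap. Gm26802 was seen in 2 of 45 fibre-low QSC barcodes without Fosb (4.44%), in 24 of 133 with 1 to 5 Fosb UMIs (18.0%) and in 31 of 234 with 6 or more (13.2%). Median depth rose over these 3 groups, from 1568 to 2016 and 2400 UMIs. Whether Gm26802 reads came from an extended Fosb transcript cannot be told from the counts.

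Barcodes with at least 500 genes and at most 10% mt- UMIs were clustered without the members and the mt- genes, which gave 12 clusters over 1984 barcodes. Within a cluster the libraries stayed apart. In cluster 3, 6 of 8 activated SC markers stood at least 2-fold above the rest with both libraries pooled. Malat1 was there at 69418 CPM in 57 QSC barcodes and 2224 CPM in 171 ASC ones. Most of these barcodes were from ASCs, so the markers need not describe the QSC ones. Cluster 7 held 8 of 8 macrophage and monocyte markers and 4 of 7 endothelial markers by the same rule, and was led by Ms4a4b, Klra2 and Ifi209. Malat1 was there at 50058 CPM in 26 QSC and 9818 CPM in 89 ASC barcodes. The quiescent SC-like cluster 2, with 9 of 10 markers, was at 64333 CPM in 252 QSC barcodes and 6037 CPM in 8 ASC ones. In cluster 7 most barcodes were again from ASCs, and in cluster 2 from QSCs, so the pooled markers need not describe the rest. The difference between libraries was thus seen in each of these clusters, but whether like cells were compared within them was not tested.

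Among QSC barcodes, Malat1 was at 50058 to 69418 CPM in 5 of the 6 clusters with at least 20 barcodes, and at 633 CPM in cluster 8 (95 barcodes), whose median fibre share was 12.1%. In clusters 0 and 1 the QSC barcodes had median fibre shares of 1.16% and 1.10% and the ASC barcodes 9.93% and 7.12%, so these clusters joined unlike barcodes. Among ASC barcodes the lowest of 9 clusters was cluster 5, a myocyte-like one with 9 of 11 markers, at 259 CPM. The highest was cluster 4, led by Bdnf, Bgn, Iigp1 and Mfap4, at 14205 CPM, a range of 54.9-fold. In cluster 4, 6 of 10 quiescent SC and 1 of 8 activated SC markers stood at least 2-fold above the rest. So did 3 of 7 fibroblast, 3 of 5 mural and 3 of 4 erythrocyte markers. Cluster 6 had 4741 CPM, of which 1 barcode gave 1326 of 1700 UMIs. Neutrophil-like cluster 10 had 10023 CPM in 25 barcodes and cluster 9, led by Mmel1, Cdkn1c, Mymk and Myog, 7731 CPM in 48.

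**Figure D5:**
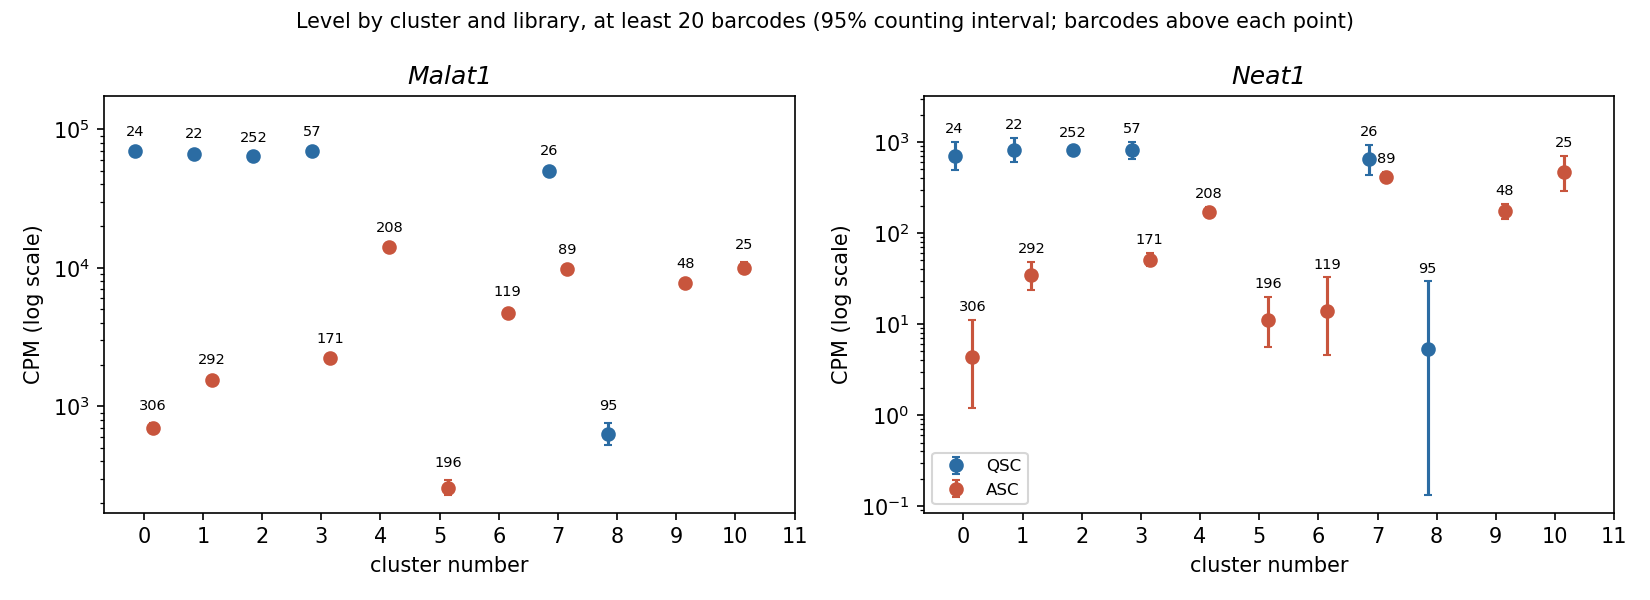
CPM (log axis) of Malat1 and Neat1 by cluster and library, where a library had at least 20 barcodes in a cluster, with 95% counting intervals and the number of barcodes above each point. In each cluster shown for both libraries (0, 1, 3 and 7) the QSC point lies above the ASC point for Malat1, and the QSC point of cluster 8 lies far below the other QSC points for both genes.

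Neat1 was spread differently over the ASC clusters. It had 464 CPM in neutrophil-like cluster 10 and 414 CPM in macrophage-like cluster 7, then 175 CPM in cluster 9 and 172 CPM in cluster 4, and 51.1 CPM or less in the other clusters. In cluster 7 the QSC level was 652 CPM (437 to 936), against 414 CPM (363 to 471) in ASCs. This was a smaller gap than in the other 3 clusters with at least 20 barcodes of each library. Kcnq1ot1 in ASCs was highest in cluster 9, with 108 CPM (84.0 to 138) and UMIs in 32 of 48 barcodes (66.7%), against 36.3 CPM in cluster 4 and 15.9 CPM in cluster 3. Cdkn1c, a gene of the Kcnq1ot1 domain, was among the genes that led cluster 9. The median depth of cluster 9 was 11888.5 UMIs and that of cluster 3 was 10461.

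Gm17167 was seen in 66 of 252 QSC barcodes of the quiescent SC-like cluster 2 (26.2%), in 7 of 57 of cluster 3 (12.3%) and in 0 of 26 of cluster 7. Gm26802 was seen in 27 of 252 (10.7%) of cluster 2, in 16 of 57 (28.1%) of cluster 3 and in 7 of 24 (29.2%) of cluster 0, and again in 0 of 26 of cluster 7. In cluster 3 Gm26802 had 267 CPM (178 to 387) against 61.9 CPM (43.6 to 85.4) in cluster 2, and Gm17167 had 66.9 CPM (26.9 to 138) against 146 CPM (117 to 180). The intervals of Gm26802 were apart between these clusters and those of Gm17167 overlapped. The median depth of the QSC barcodes was 2334.5 UMIs in cluster 2, 1750 in cluster 3, 1833 in cluster 0 and 1532.5 in cluster 7.

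Genes related to the members by place or role are given by their counts, beside the median of all ranked genes in the same comparison. Of 16 other nuclear long noncoding transcripts, 9 were ranked in ASCs over QSCs with at least 500 genes, and 6 were lower past 2-fold and 0 higher, with a median of -1.34 against -0.08 for all genes. Meg3, from an imprinted cluster on another chromosome, was at -2.29 with 2360 and 1510 UMIs, Rian of the same cluster at -1.96, Tug1 at -1.63 and Dleu2 at -1.62. Of 14 long noncoding transcripts that are exported or host snoRNAs, 13 were ranked, with 4 higher and 0 lower and a median of 0.59, led by Snhg6 at 1.26 and Epb41l4aos at 1.20. Gas5, the gene of this list with the most UMIs, was at -0.63, and the summed level of the list was 1834 CPM in ASCs and 1848 CPM in QSCs.

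The protein genes of the 2 nuclear bodies were, as lists, near the median of all genes between libraries. Of 16 paraspeckle protein genes, 15 were ranked in ASCs over QSCs with at least 500 genes, with 1 higher (Rbm14, at 1.09), 2 lower (among them Matr3, at -1.20) and a median of 0.05. Of 15 nuclear speckle protein genes, 2 were higher (Srsf6 at 1.15 and Srsf3 at 1.01) and 0 lower, with a median of -0.19. Like the members, the paraspeckle list was lower in fibre-high than in fibre-low barcodes. In barcodes with at least 500 genes, it summed to 2081 CPM in fibre-low and 401 CPM in fibre-high QSC barcodes, and to 2133 and 617 CPM in ASC ones. Other lists were lower too. In the same QSC barcodes the other nuclear long noncoding list was at 1872 and 88.6 CPM and the speckle list at 3152 and 625. The exported list was at 2061 and 928 CPM and the cytosolic ribosomal protein genes at 211550 and 84029. The neighbours of Malat1 and Neat1 were at 251 and 233 CPM. The split was thus not particular to the members or the paraspeckle list.

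In QSC barcodes with under over at least 500 genes, where the median of all genes was -0.66, the same lists were lower. The medians were -1.82 for the nuclear long noncoding list (3 of 5 lower, Meg3 at -3.15), -1.54 for the exported list (6 of 11 lower, 1 higher), -1.74 for the paraspeckle list (8 of 13) and -1.67 for the speckle list (12 of 15). The cytosolic ribosomal protein genes, whose mRNAs are not nuclear, had a median of -1.17 with 54 of 82 lower and 1 higher. Lower values with few genes were thus not particular to nuclear transcripts. In the matching ASC comparison, with a median of -0.29 for all genes, the medians were -2.39 (1 gene, Meg3), -1.04, -0.78, -1.07 and -0.91.

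Of 12 genes of the Kcnq1ot1 domain, 6 were ranked in ASCs over QSCs with at least 500 genes. Cdkn1c, which Kcnq1ot1 silences on the paternal allele, was higher at 3.13 (2.83 to 3.45), with 6085 against 91 UMIs. Of the Cdkn1c UMIs, 5569 lay in cluster 9, where Kcnq1ot1 was highest among the ASC clusters. Cd81, which encodes a membrane tetraspanin, was lower at -1.55, and the median was 0.01. Kcnq1, read from the opposite strand, had 1 UMI over all classes. Of 11 neighbours of Malat1 and Neat1, 9 were ranked, with Frmd8 higher at 1.66 on 5 QSC UMIs, Ltbp3 lower at -1.63 and a median of 0.42, so the neighbours as a list were not lower with Malat1 and Neat1. For under over at least 500 genes, the neighbour list had medians of -0.05 in QSCs and -0.33 in ASCs, with 0 genes past 2-fold.

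The genes whose levels were most like those of a member were found over 14 groups of library, gene class and mt- bin, by Pearson's r of log2(CPM + 10) among 4863 genes. For Malat1 they were Rbm4b (0.946), Notch2 (0.918), Col3a1 (0.907), Tmbim1 (0.904) and Neat1 (0.894). For Neat1 they were Notch2 (0.918), Col3a1 (0.911), Eif4g1 (0.904), Malat1 (0.894) and Ddx5 (0.894). Notch2 and Col3a1 were in both lists, and Malat1 and Neat1 were each in the list of the other. For Kcnq1ot1 they were Ddr1 (0.970), Fkbp9 (0.968), Olfml2b (0.956), Map4k4 (0.945) and Cdon (0.938). The groups share libraries, so these values describe likeness only.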

How the data were processed

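Libraries were made from sorted QSCs and ASCs with the 10x Genomics single cell 3′ v2 chemistry. The deposited values are counts, whole numbers of UMIs per gene and barcode. Per the file headers the authors made them with Cell Ranger 6.0.2, while the submitters' processing notes name Cell Ranger 7.1.0, Seurat 4.1.0 and R 4.1.2. Whether intron reads were counted is not given in the sources used here, and it would change the counts of unspliced nuclear transcripts. Of 32285 features, 32158 matched GENCODE M21 by identifier, and 9830 of these are long noncoding.

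UMIs were summed over the barcodes of a class. CPM carry exact Poisson intervals, ratios exact conditional binomial intervals and shares exact Clopper-Pearson intervals, all at 95%. Calls used genes with at least 20 UMIs over both classes, and medians and ranks those with an expected count of at least 3 in the smaller class. Where a class had 0 UMIs, 3 were assumed to bound a fold. Except among the alternatives or where stated, CPM and ratios by fibre class used barcodes with at most 10% mt- UMIs. No doublets were removed. Clusters were made with Seurat 5.3.0 in R 4.3.3 at a resolution of 0.6 with 10 principal components. Other steps used Python 3.11.15, numpy 2.4.6, scipy 1.17.1 and pandas 2.3.3. The ratio steps were tested on simulated data.

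The members, lists, markers and classes were chosen with earlier results of these data known. The text names the 5 members, at most 4 genes of a list by the size of their ratio, the genes with the 10 highest ratios of under over at least 500 genes, and the 5 genes most like a member. Exceptions named after their values were seen are Kcnq1, Fosb, the haemoglobin genes and the genes that mark or lead a cluster. Alternatives changed the gene split, the mt- limit, the denominator, the scaling (TMM of edgeR 4.0.16, size factors of DESeq2 1.42.0), the weighting of barcodes, the fibre share, the low-count filter and the cluster resolution.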

Additional observations from a re-analysis of the deposited data

How the results depend on the processing

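Values are the log2 ratios of Malat1. For under over at least 500 genes in QSCs, -2.88 kept its sign throughout. It was -2.66 with a split at 400 genes, -1.56 at 750, -3.67 with at most 10% mt- UMIs and -0.25 with at most 1%. It was -2.74 without mt- and fibre genes in the denominator, -2.60 with TMM, -2.63 with DESeq2 size factors and -2.64 with equal barcode weight. It was -0.25 in fibre-low and -1.57 in fibre-high barcodes of any mt- share. Members lower past 2-fold, 5 of 5, became 3 at 400 genes (14.6% of all genes tested were lower), 4 at 750 (28.1%), 4 with TMM (15.6%), 0 of the 1 with enough UMIs with at most 1% mt- UMIs (3.51%), 0 of 5 in fibre-low (3.04%) and 1 of 1 in fibre-high barcodes (2.59%).

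In ASCs, -0.02 became -1.01 at 400 genes, 0.25 at 750, -0.85 with at most 1% mt- UMIs, 0.16 without mt- genes, 0.20 without mt- and fibre genes, -0.20 with equal weight, 0.87 in fibre-low and 0.83 in fibre-high barcodes. Members past 2-fold, 0 in the report, became 2 lower at 400 (3.15% of all genes lower), 2 at 750 (12.1%) and 1 with TMM (4.78%).

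For ASCs over QSCs with at least 500 genes, -3.41 turned to 1.19 with at most 1% mt- UMIs, the limit of the study's methods, which left in the QSC library the bin with a median fibre share of 11.9%. The other values were -3.34 at 400 genes, -3.51 at 750, -3.44 without mt- genes, -3.43 without mt- and fibre genes, -3.10 with TMM, -3.45 with DESeq2 size factors, -3.15 in fibre-low and -2.98 in fibre-high barcodes, and -3.36 without the 1% of barcodes with the most UMIs. Members past 2-fold were 2 of 2, both higher, with at most 1% mt- UMIs (8.61% of all genes higher), 2 of 2 lower in fibre-high (5.76% lower), 4 of 5 lower in fibre-low barcodes (21.4%) and 4 of 5 lower with TMM (15.7%), which both left out Kcnq1ot1.

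With under 500 genes, -0.55 turned to 0.16 with at most 10% and 0.58 with at most 1% mt- UMIs. It was -1.69 at 400 genes, -1.70 at 750, -0.77 with DESeq2 size factors, -0.96 with equal weight and -2.04 in fibre-low barcodes. Members past 2-fold, 0 in the report, became 1 of 1 lower at 400 (21.04% of all genes lower), 2 of 2 at 750 (9.28%) and 1 of 1 in fibre-low barcodes (9.66%). Without the 4 shared barcode sequences, an alternative chosen after seeing the data, Malat1 was at -3.07 in QSCs and -0.37 for this comparison. Without the barcode with the most Malat1 UMIs of each class, likewise chosen after seeing the data, the 4 comparisons were at -3.06, -0.68, -3.45 and -1.07. Members lower past 2-fold became 1 in ASCs by gene class (Neat1, 4.05% of all genes lower) and 1 for ASCs over QSCs with under 500 genes (Malat1, 13.4%). At a cluster resolution of 0.3 the range of Malat1 over ASC clusters was 11.7-fold in place of 54.9-fold. The cause of these shifts was not tested.

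No paired analysis was possible because each group was 1 library, so leaving out a replicate was not run. Depth limits the members other than Malat1 in barcodes with under 500 genes, where they had 0 to 13 UMIs in each library.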

Other observations

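Malat1 took over 15% of the UMIs in 9 barcodes. The highest was an ASC barcode with 1326 Malat1 UMIs of 2528 (52.5%), 632 detected genes, 0 Neat1 UMIs and 0.554% mt- UMIs. The next was a QSC barcode with 140 of 528 UMIs (26.5%), 228 genes and 23.1% mt- UMIs. By class, 4 of the 9 were QSC barcodes with under 500 genes, 2 were QSC and 2 were ASC barcodes with at least 500, and 1 was an ASC barcode with under 500. All 9 were fibre-low, and 4 of them had 0 Neat1 UMIs.

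The genes ranked here had at least 100 CPM in the higher class and at least 20 UMIs over both classes. Those with the highest ratios of under over at least 500 genes were genes of red cells in the QSC library. Hba-a1, an alpha globin gene, was at a log2 ratio of 7.28 (413 against 18 UMIs) and Hbb-bs, a beta globin gene, at 6.14. Fibre and metabolic genes such as Ucp3 (2.44) and Klhl31 (2.30) followed. In the ASC library Lyz1, a lysozyme gene, was at 5.79, Hba-a1 at 4.67, the platelet gene Pf4 at 3.57 and the mitochondrial mt-Nd4 at 3.42. With that CPM limit, no long noncoding transcript was among the 10 highest in either library. Without it, 24.5% of long noncoding genes (26 of 106) were higher past 2-fold in QSCs, beside 9.8% of all genes (607 of 6196). In ASCs the shares were 3.97% (14 of 353) and 2.01% (216 of 10732).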
